A study of Mus musculus with 2 samples.

Results

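The nuclei described here came from mouse aorta (ascending part and arch), passed a fibroblast condition on 3 genes, and were chosen by their RNA for neuroligin 1 (Nlgn1), the M2 muscarinic receptor (Chrm2), transcription factor AP-2 beta (Tfap2b) and the collagen VI chain Col6a6. A barcode with at least 300 detected genes counted as fibroblast when it held at least 2 unique molecular identifiers (UMIs, 1 for each captured RNA molecule) of Pdgfra, Dcn and Col1a2 together, and more of these than of Myh11, Acta2 and Lmod1. It was chosen when Nlgn1, Chrm2, Tfap2b and Col6a6 summed to at least 3 UMIs and this sum was above those of 3 other fibroblast marker sets, led by C7 and Scara5, by Pex5l and Lsamp, and by Pi16 and Dact2. The rule chose 110 of 6921 fibroblast barcodes, among 39516 barcodes with enough genes: 70 of 3184 in the Female library and 40 of 3737 in the Male library. These counts are shares of 2.20% (95% exact interval 1.72 to 2.77%) and 1.07% (0.766 to 1.45%). The Female share was the higher one, and the intervals cover counting error only.

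The study profiled single nuclei from mice carrying Wnt1-Cre and the Rosa26-mTmG reporter, with tissue of 6 mice pooled for each sex, so that there is 1 library for Female and 1 for Male. Both groups had the same genotype, neither had a stated treatment, and the labels used here give no age and no strain background. Each pool was split into 2 technical replicates, which the files do not mark apart. With 1 library per sex no test between the sexes was possible, and every difference below is a description of these libraries. Because the label was chosen on the same nuclei, differences between chosen and other fibroblast nuclei are descriptions too.

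AP-2 beta is a transcription factor of neural crest derivatives and of the ductus arteriosus, the fetal vessel that joins the pulmonary artery to the aortic arch. The M2 receptor is a G protein-coupled receptor for acetylcholine, best known for slowing the heart beat, and neuroligin 1 is an adhesion protein that binds neurexins at synapses. Collagen VI forms beaded filaments around cells, and insulin-like growth factor 1 (Igf1), which was listed as a marker of these nuclei but was not read by the rule, is a secreted growth factor made by many fibroblasts. In Wnt1-Cre;Rosa26-mTmG mice, Cre made in the Wnt1 lineage, which includes the cardiac neural crest, switches a cell and its descendants from membrane tdTomato to membrane GFP for good.

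Of the rule's genes, Tfap2b gives the label its name, and the stretch just upstream of its start is shown for reference, with that of Col6a6. In GRCm38, Tfap2b spans chr1:19208914-19238576 on the plus strand, Chrm2 chr6:36388084-36528414 on the plus strand, Nlgn1 chr3:25426215-26332460 on the minus strand and Col6a6 chr9:105687809-105828160 on the minus strand. The 250 bases before the RefSeq start of Tfap2b (GRCm38.p6, chr1:19211804-19212053, plus strand, which lies inside the span above because that annotation, GENCODE, also holds an earlier start) overlap no GENCODE exon. For Col6a6 the 175 bases of its window that no exon covers (chr9:105828161-105828335, minus strand) are given.
Tfap2b: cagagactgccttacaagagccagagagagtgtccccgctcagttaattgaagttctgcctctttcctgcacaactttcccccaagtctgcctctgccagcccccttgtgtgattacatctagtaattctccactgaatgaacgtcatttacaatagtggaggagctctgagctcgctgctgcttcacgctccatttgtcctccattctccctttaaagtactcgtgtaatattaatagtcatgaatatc
Col6a6: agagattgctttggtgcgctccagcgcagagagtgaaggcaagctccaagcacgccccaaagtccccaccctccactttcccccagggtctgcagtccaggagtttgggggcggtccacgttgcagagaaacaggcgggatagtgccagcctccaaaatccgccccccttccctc
The AP-2 motif GCCNNNGGC, which reads the same on both strands, was searched for in the 250 bases before the starts of Nlgn1, Chrm2, Tfap2b, Col6a6 and Igf1 and had 0 matches there, so nothing is in capitals. It occurred in 13.7% of all such windows in the RefSeq table. A missing match says only that these letters are not in this window.

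Across the whole libraries, total depth was 79294181 UMIs for Female and 77989549 for Male, with medians of 3545.5 and 3103 UMIs per barcode. The chosen nuclei were about as deep: their median was 3554.5 UMIs in Female (range 1405 to 17352) and 4547 in Male (633 to 13523), against 3654 and 3782 in the other fibroblast barcodes. Their summed depth was 326030 and 204835 UMIs. A doublet caller marked 6 of the 70 Female and 6 of the 40 Male nuclei, against 5.36% and 8.06% of the other fibroblast barcodes. All 6 Male calls fell on nuclei with a high endothelial marker sum, the 20 endothelial-marked nuclei described next, and in Female 2 calls fell on such nuclei, 1 on a mesothelial-marked one and 3 on unmarked ones. The libraries had 4287 barcode sequences in common, among them 8 of the Female and 9 of the Male chosen nuclei. Leaving these out gave shares of 2.49% in Female and 1.05% in Male. Xist had 363 UMIs in the Female nuclei and 0 in the Male ones, and Uty had 0 and 25, as the labels name the libraries.

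The label did not hold for all 110 nuclei, because many carried markers of other cell types. The sum of 10 vascular endothelial markers exceeded that of the 3 fibroblast genes in 23 Female and 20 Male nuclei, here called endothelial-marked. The sum of 8 mesothelial markers did so in 6 Female and 9 Male nuclei, called mesothelial-marked. The remaining 41 Female and 11 Male nuclei, 52 in all, had neither mark and are called unmarked. Marks also occurred among the other fibroblast barcodes, at a lower share than in the chosen nuclei. Of those barcodes, 2294 of 3114 in Female and 2423 of 3697 in Male were unmarked. These marks were set after seeing the data. In the endothelial-marked nuclei the endothelial sum had a median of 42 UMIs in Female (8 to 202) and 54 in Male (19 to 110). In the unmarked nuclei the endothelial cadherin Cdh5 had 1 UMI in Female and 0 in Male, and Vwf, Kdr and Emcn had 0 in both. Pecam1, of the same list, was not at 0: it had 44 UMIs in 15 of the 41 Female nuclei (280 CPM against 68.5 in unmarked other fibroblast nuclei) and 1 UMI in Male. Their endothelial marker sum was 375 and 263 CPM (UMIs of a gene or list per 1000000 UMIs of the summed nuclei), against 303 and 433 CPM in the unmarked other fibroblast nuclei. The chosen nuclei are therefore called by the rule below, not by a cell type name.

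**Figure D1:**
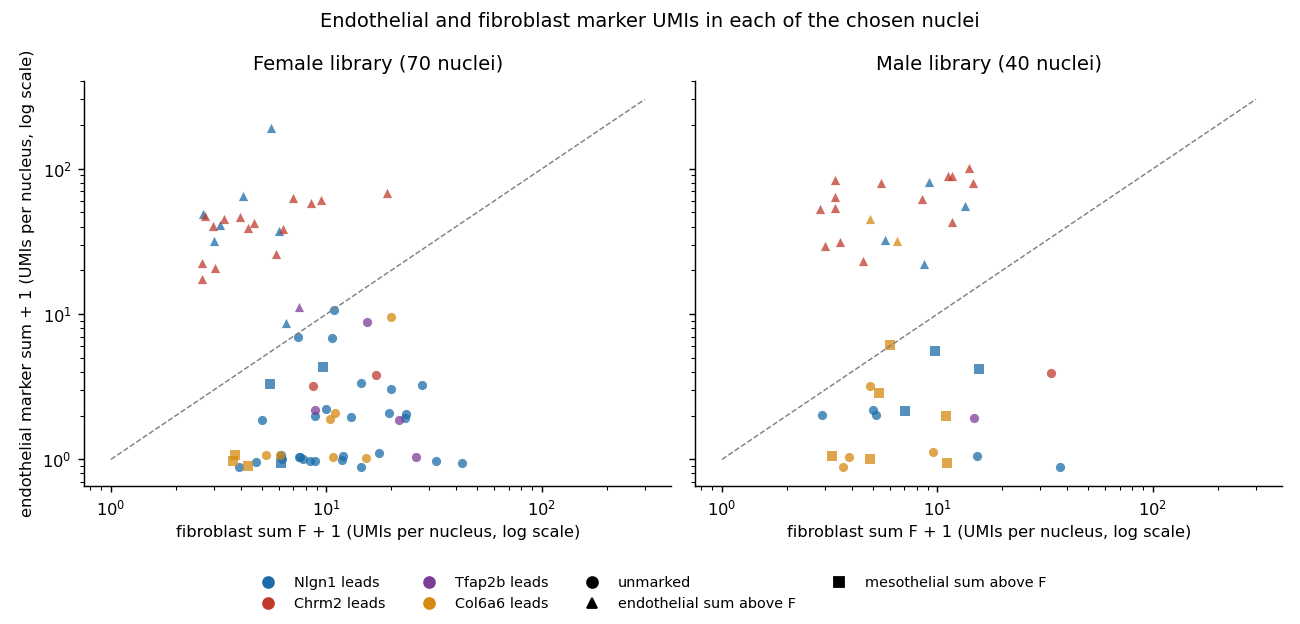
Each point is 1 chosen nucleus, with its fibroblast UMIs (Pdgfra, Dcn and Col1a2) against its endothelial marker UMIs on log axes, one panel per library, with points shifted slightly at random to part them. Colour gives the leading gene of the rule and shape the mark. The 23 Female and 20 Male endothelial-marked nuclei lie above the line of equal sums.

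Which of the 4 genes chose a nucleus went with its mark. Nlgn1 led, that is had the most UMIs of the 4, in 38 Female nuclei, of which 28 were unmarked, 7 endothelial-marked and 3 mesothelial-marked. In Male it led in 12 nuclei, of which 5 were unmarked. Chrm2 led in 17 Female and 15 Male nuclei, and 15 and 14 of these were endothelial-marked. The Chrm2-led nuclei had a median of 42 endothelial marker UMIs in Female and 59 in Male, beside a median of 4 and 5 fibroblast UMIs. Col6a6 led in 10 Female nuclei, 7 of them unmarked, and in 12 Male nuclei, 6 of them mesothelial-marked. Tfap2b led in 5 Female nuclei, 4 of them unmarked, and in 1 Male nucleus, which was unmarked.

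**Figure D2:**
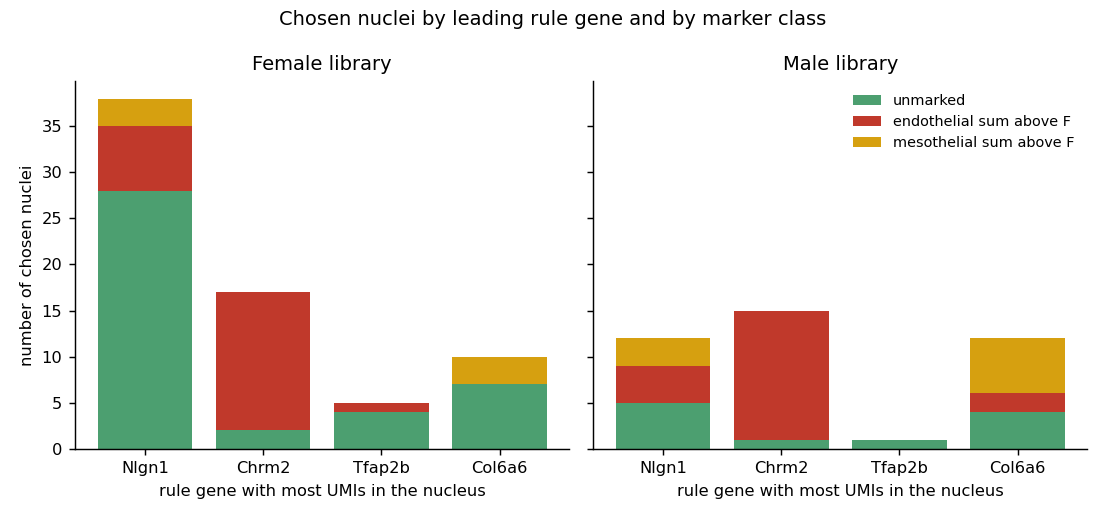
Bars give the number of chosen nuclei led by each of the 4 genes, split by mark, for the Female and Male libraries. Chrm2-led nuclei are mostly endothelial-marked (15 of 17 and 14 of 15), and Nlgn1-led Female nuclei mostly unmarked (28 of 38).

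Most nuclei were chosen on few genes. Only 1 of the 4 was detected in 38 Female and 33 Male nuclei, 2 in 20 and 7, 3 in 11 Female nuclei and all 4 in 1 Female nucleus. In Female, the more of the genes a nucleus held, the fewer marks were seen: 11 of the 38 nuclei with 1 gene were unmarked, 18 of the 20 with 2 genes and all 11 with 3 genes. In Male, 8 of the 33 nuclei with 1 gene and 3 of the 7 with 2 genes were unmarked. The summed UMIs of the 4 genes ran from 3 through a median of 7 to 62 per nucleus in Female, and from 3 through 5 to 65 in Male. Just inside the threshold, 10 Female and 8 Male nuclei had a sum of exactly 3, and just outside it 19 and 15 had a sum of 2 that was also above the other marker sets. A further 230 Female and 190 Male fibroblast barcodes reached 3 UMIs but not the second condition.

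The rule's own genes are given here as values only. Nlgn1 had 586 UMIs in 44 of the Female nuclei and 164 in 12 of the Male ones, or 1797 and 801 CPM, against 81.5 and 57.6 CPM in the other fibroblast barcodes. Chrm2 had 147 UMIs in 28 nuclei and 75 in 15 (451 and 366 CPM, against 5.65 and 6.01). Tfap2b had 46 UMIs in 18 nuclei and 11 in 5 (141 and 53.7 CPM, against 4.49 and 3.72). Col6a6 had 92 UMIs in 25 nuclei and 63 in 15 (282 and 308 CPM, against 64.2 and 41.5).

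The same genes were also counted over every barcode, fibroblast or not. At least 3 UMIs of Tfap2b were found in 41 Female barcodes, of which 8 were chosen, 6 were other fibroblast nuclei and 27 were smooth muscle nuclei, defined by at least 2 UMIs of Myh11, Acta2 and Lmod1 and more of these than of the fibroblast genes. In Male they were found in 35, of which 1, 6 and 25 fell into these groups. For Chrm2 the Female barcodes numbered 62, with 24 chosen, 18 smooth muscle and 11 endothelial, and the Male ones 50, with 15, 8 and 12. For Nlgn1 there were 272 and 193 such barcodes, of which 40 and 11 were chosen and 129 and 112 were other fibroblast nuclei. The classes differ in size, with 10123 Female and 9809 Male smooth muscle nuclei against 3184 and 3737 fibroblast barcodes, so these counts give no order of levels.

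A clustering of all 6921 fibroblast barcodes that left out the rule's genes gave 10 clusters, and 1 of them gathered most of the unmarked chosen nuclei. This cluster, called the Kcnma1 cluster after its leading gene, held 172 nuclei, 93 in Female (2.92%, 2.36 to 3.57%) and 79 in Male (2.11%, 1.68 to 2.63%). Its leading genes were Kcnma1, Zfp385b, Syndig1, Mamdc2, Tfap2b, Mtus2, Gclc, Chrm2, Col4a6 and Ntm. The cluster held 36 of the 110 chosen nuclei (32.7%) and 33 of the 52 unmarked ones (28 of 41 Female, 5 of 11 Male). The clustering had not read Tfap2b and Chrm2. Their place among the leading genes is partly set by the rule, because those genes were ranked over all 172 nuclei, with the 36 chosen ones. The other chosen nuclei lay mainly in a cluster led by Bmp6, Emcn, Nrg1 and Ptprb with 31, of whose nuclei 99.9% were endothelial-marked, and in one led by Rbfox1, Upk3b, Wt1 and Muc16 with 18, of whose nuclei 76.0% were mesothelial-marked.

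The Kcnma1 cluster also held 63 Female and 73 Male nuclei that the rule did not choose, so the rule found a minority of it. Of these, 17 and 22 had no UMI of the 4 genes, 21 and 29 had 1 or 2, and 25 and 22 had at least 3 but not more than another marker set. Their median depth was 3004 and 2533 UMIs, below the 3654 and 3782 of the other fibroblast barcodes. These nuclei were grouped without the rule's genes, and their levels of those genes are given next, as a description of the cluster. The unmarked nuclei of the other clusters, here and below, also leave out the chosen ones. Leaving out chosen nuclei lowers the 4 genes in both groups, so these levels and their ratios are partly set by the rule. Chrm2 stood at 156 CPM in Female and 286 in Male, against 1.15 and 0.432 CPM in the unmarked nuclei of the other clusters. Tfap2b stood at 165 and 158 CPM, against 2.18 and 2.27. Nlgn1 stood at 290 and 281 CPM against 102 and 84.8, and Col6a6 at 219 and 375 against 79.4 and 50.3. All 4 genes were higher there in both libraries, Chrm2 and Tfap2b by far the most.

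Other genes, named next, were also higher in these unchosen cluster nuclei. The clustering could read them, so their levels there are partly set by the grouping. Their ratios were below those of Chrm2 and Tfap2b, except for Pappa2 in Male, whose ratio was above that of Tfap2b. Kcnma1, the pore of the large-conductance calcium-activated potassium channel, stood at 1286 CPM in Female and 1575 in Male, against 48.3 and 51.9 CPM in the unmarked nuclei of the other clusters. Chrm3, the M3 muscarinic receptor, stood at 491 and 365 CPM against 46.4 and 41.2, so that RNA of a pair of muscarinic receptors was high in the same cluster. Ncam1, a neural cell adhesion molecule, stood at 764 and 671 CPM against 48.1 and 46.0. Pappa2, a protease that cuts IGF-binding proteins and so frees IGF, stood at 84.9 and 183 CPM against 3.55 and 0.648. Igf1 itself stood at 1050 and 785 CPM against 244 and 173, and was detected in 34 of the 63 and 48 of the 73 nuclei.

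The cluster's identity by common markers was mixed. Of the fibroblast genes, Dcn was higher than in the unmarked nuclei of the other clusters (2184 and 3579 CPM against 1339 and 1518), Pdgfra was similar (389 and 439 against 471 and 435) and Col1a2 was lower (487 and 355 against 816 and 762). Myh11, smooth muscle myosin, stood at 228 and 311 CPM against 106 and 110, far under the 3826 and 3973 CPM of smooth muscle nuclei. Of the unchosen cluster nuclei, 5 Female and 10 Male ones were endothelial-marked, and 3 Male ones were doublet calls. With marked nuclei left out of the cluster as they are of the other clusters, 58 and 63 nuclei remained. In these the endothelial adhesion gene Pecam1 stood at 381 and 405 CPM against 61.0 and 143, in 19 and 31 nuclei, although a mark on the endothelial sum holds its level down in both groups. Of the other endothelial genes, Flt1 was also higher (53.0 and 90.8 CPM against 26.7 and 23.7) and Tek lower (19.3 and 36.3 against 142 and 174). Cdh5 had 0 and 2 UMIs there, Kdr 0 and 0, Emcn 1 and 1, Vwf 3 and 9 and Ptprb 2 and 7. Chrm2 (169 and 284 CPM), Tfap2b (164 and 157) and Igf1 (1113 and 823) stayed above the unmarked nuclei of the other clusters. The mesothelial marker list had 1 and 0 UMIs. The pericyte marker list summed to 2023 and 2281 CPM in all unchosen cluster nuclei against 1008 and 863 CPM, in 57 of 63 and 66 of 73 nuclei. Most of that was Abcc9, a subunit of ATP-sensitive potassium channels (1626 and 1807 CPM against 638 and 555), while Rgs5 had 1 and 1 UMI and Notch3 and Higd1b had 0. The perineurial list summed to 505 and 874 CPM against 302 and 359.

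**Figure D3:**
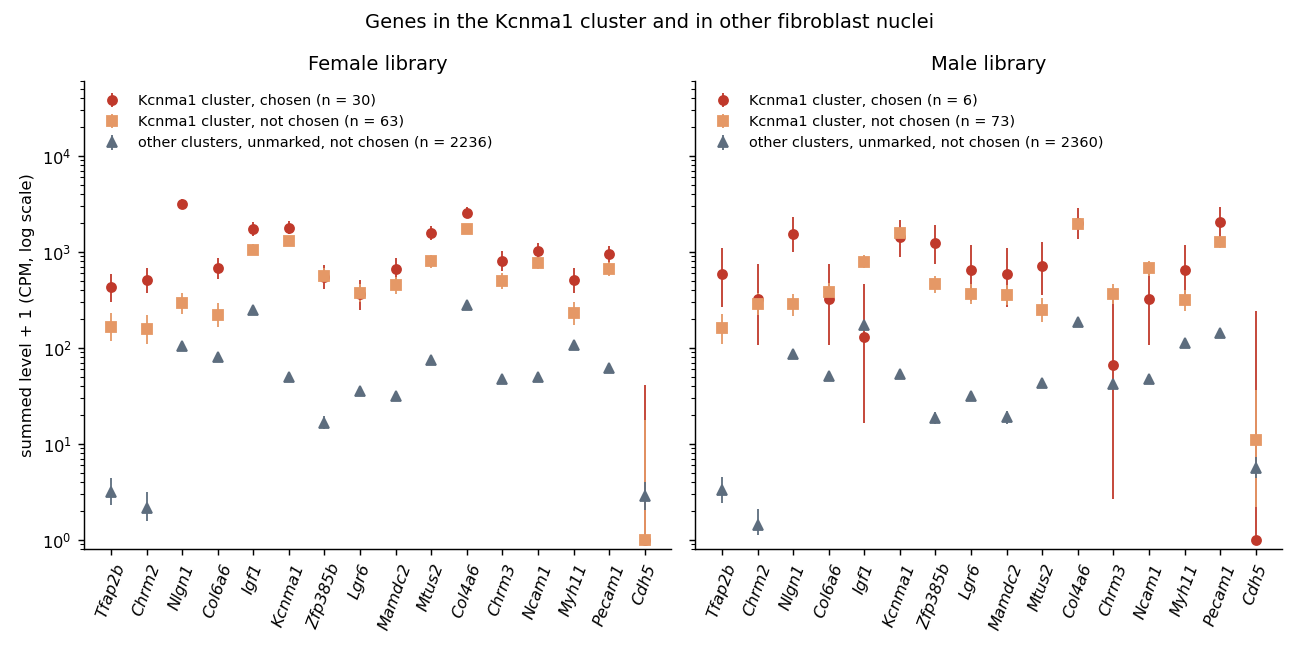
CPM on a log axis for the rule's genes and other genes, one panel per library, with exact Poisson 95% intervals. Shown are the Kcnma1 cluster nuclei that the rule did or did not choose and the unmarked, unchosen nuclei of the other fibroblast clusters. The Kcnma1 cluster groups here keep their marked nuclei. Chrm2, Tfap2b and Kcnma1 lie far apart between the groups in both libraries, and Cdh5 is near 0 in all.

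The reporter transcripts, which neither the rule nor the clustering read, differed with the mark. In all chosen nuclei GFP made up 38 of 70 reporter UMIs in Female (54.3%, 41.9 to 66.3%) and 17 of 57 in Male (29.8%, 18.4 to 43.4%), against 42.9% and 39.1% in the other fibroblast barcodes. In the unmarked Female nuclei it made up 34 of 39 (87.2%, 72.6 to 95.7%), with 14 nuclei holding GFP only and 2 tdTomato only. The unmarked other fibroblast nuclei were at 62.4% (59.7 to 65.1%) in Female and 64.4% in Male. The 11 unmarked Male nuclei held 1 reporter UMI, too few to give a share. In the endothelial-marked nuclei GFP made up 3 of 27 UMIs in Female (11.1%) and 11 of 44 in Male (25%), beside 16.3% and 15.7% in endothelial nuclei. Counted over UMIs, the Female unmarked interval did not overlap that of the unmarked other fibroblast nuclei, but UMIs of 1 nucleus are not independent and 1 nucleus held 6. Counted over nuclei with 1 reporter only, 14 of 16 held GFP (87.5%, 61.7 to 98.4%), against 60.7% (57.1 to 64.3%), and these intervals overlap. With UMIs thinned in the same nuclei they overlap too, at 88.9% (51.8 to 99.7%, 8 of 9) against 63.6% (58.2 to 68.7%).

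In the Kcnma1 cluster the share was high in both libraries. GFP made up 90.8% of its reporter UMIs in Female (81.0 to 96.5%) and 93.2% in Male (84.7 to 97.7%). The nuclei that the rule did not choose had 38 of 43 in Female (88.4%, 74.9 to 96.1%) and 67 of 72 in Male (93.1%, 84.5 to 97.7%). Without marked nuclei the unchosen ones had 34 GFP and 3 tdTomato UMIs in Female (91.9%) and 60 and 5 in Male (92.3%). Counted over nuclei with 1 reporter only, the whole cluster was at 90.9% (75.7 to 98.1%) and 89.2% (74.6 to 97.0%), against 59.9% (56.1 to 63.5%) and 63.0% (59.3 to 66.5%) in the unmarked nuclei of the other clusters. Those were at 61.5% and 63.0% over UMIs, and smooth muscle nuclei at 49.3% and 47.2%. The 3 other rule-defined fibroblast groups, taken over their unmarked nuclei, lay in between: 67.7% and 69.3% for the C7 and Scara5 group, 57.7% and 63.2% for the Pex5l and Lsamp group, and 56.2% and 60.1% for the Pi16 and Dact2 group. A reporter UMI tells which transcript was captured in a pool of nuclei, and no Cre-negative sample was analysed here.

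**Figure D4:**
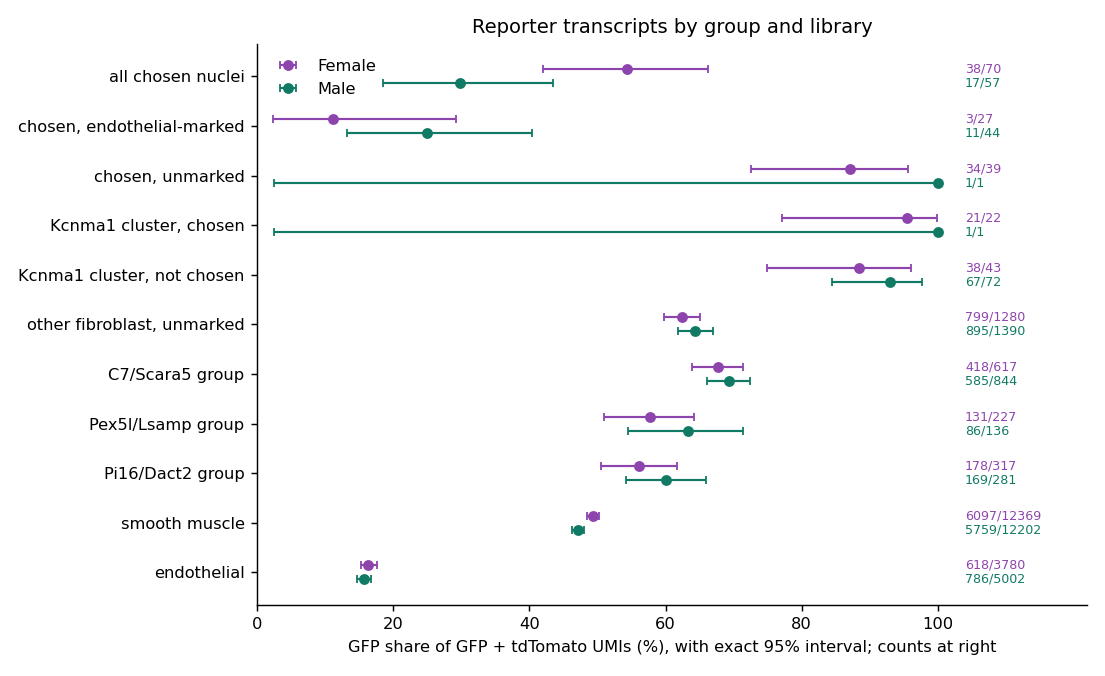
GFP as a percent of GFP plus tdTomato UMIs, with exact 95% intervals and the UMI counts at the right, for chosen nuclei, their marked and unmarked subsets, the Kcnma1 cluster and comparison groups in Female and Male. The Kcnma1 cluster nuclei not chosen lie at 88.4% and 93.1%, and endothelial-marked chosen nuclei lie at 11.1% and 25%.

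Across all genes, the chosen nuclei were compared with the other fibroblast barcodes within each library, as log2 of (CPM + 5) in one group over the other. Of 8432 genes with enough UMIs, 121 (1.44%) were at least 2-fold higher in both libraries and 223 (2.64%) at least 2-fold lower. In Female alone 4.79% were higher and 6.11% lower, and in Male alone 5.89% and 9.33%. The rule used this contrast, so nothing is read from these shares. Of the 15 genes named as higher by the fixed order of effect, 10 had their highest level among 4 other classes (smooth muscle, endothelial, mesothelial and unmarked other fibroblast nuclei) in smooth muscle, and 3 (Emcn, St6galnac3 and Csgalnact1) in endothelial nuclei. No share over all genes is given beside this count, so it is a description only. The Kcnma1 cluster was not a class of its own in that count. Its unchosen nuclei stood above smooth muscle in both libraries for Kcnma1 (in Female by a narrow margin), for Zfp385b (563 and 459 CPM against 248 and 220), for Mamdc2 (447 and 355 against 72.8 and 30.1) and for Col4a6 (1737 and 1925 against 920 and 769). These are leading genes of that cluster, so high levels there follow in part from the grouping. The rest of the 10 genes are not compared with the cluster here.

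Among those highest in smooth muscle of the 4 classes, Kcnma1 had 200 UMIs in 37 Female nuclei and 62 in 10 Male ones. Its level was 613 CPM against 66.8 in Female and 303 against 62.2 in Male, a log2 difference of 3.11 and 2.19. It stood at 1236 and 1201 CPM in smooth muscle nuclei, above the chosen nuclei in both libraries. Lgr6, a receptor for R-spondins that strengthens Wnt signalling, had 76 and 40 UMIs in 22 and 10 nuclei. Its level was 233 CPM against 33.6 in Female and 195 against 31.1 in Male (log2 2.62 and 2.47), with 862 and 790 CPM in smooth muscle. Zfp385b, a zinc finger protein, had 55 and 41 UMIs, at 169 CPM against 24.6 and 200 against 21.1 (log2 2.55 and 2.98). The potassium channel gene Kcnq5 had 35 and 38 UMIs, with log2 differences of 1.92 and 2.69.

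Mamdc2, which encodes a secreted MAM-domain protein, had 65 UMIs in 17 Female nuclei and 21 in 6 Male ones (199 CPM against 31.6 and 103 against 17.1, log2 2.48 and 2.29). It differed from the genes above in that smooth muscle held only 72.8 and 30.1 CPM, below the chosen nuclei in both libraries. Mtus2, which encodes a microtubule-associated protein, had 158 and 39 UMIs in 31 and 11 nuclei (log2 2.63 and 2.17). Col4a6, a basement membrane collagen IV chain, had 315 UMIs in 42 Female nuclei and 130 in 14 Male ones, at 966 CPM against 253 and 635 against 173 (log2 1.91 and 1.84). A single Male nucleus gave 63 of those 130 UMIs. Pdzrn4 was similar, with 38 of its 51 Male UMIs in 1 nucleus. Mettl24 had 28 and 12 UMIs (log2 1.69 and 1.74).

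Emcn, St6galnac3 and Csgalnact1, the genes among the 15 that were highest in endothelial nuclei, are given next. Emcn is one of the markers that set the endothelial mark, so a low level in unmarked nuclei follows in part from the mark. Emcn, which encodes the endothelial sialomucin endomucin, had 169 UMIs in 17 Female nuclei and 140 in 17 Male ones, at 518 CPM against 136 and 683 against 164 (log2 1.89 and 2.03), and had 0 UMIs in the unmarked chosen nuclei. St6galnac3, a sialyltransferase, had log2 differences of 1.96 and 1.68, and Csgalnact1, which starts chondroitin sulfate chains, of 1.67 and 1.87. When every barcode was thinned to 1000 UMIs before choosing, Emcn (log2 -3.72), St6galnac3 (-3.27), Csgalnact1 (-0.34) and Pdzrn4 (-0.70) turned to lower in both libraries. Each value is that of the library with the smaller difference, and 18 Female and 11 Male nuclei were then chosen. The whole endothelial marker list summed to 3524 and 5727 CPM in the chosen nuclei, against 2263 and 3048 CPM in the other fibroblast barcodes. The smooth muscle list summed to 862 and 693 CPM against 534 and 475, with Des at 0, and the mesothelial list to 669 and 1880 against 331 and 548. The part of nuclei or RNA of these types in the differences was not tested, beyond the values given for unmarked nuclei.

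**Figure D5:**
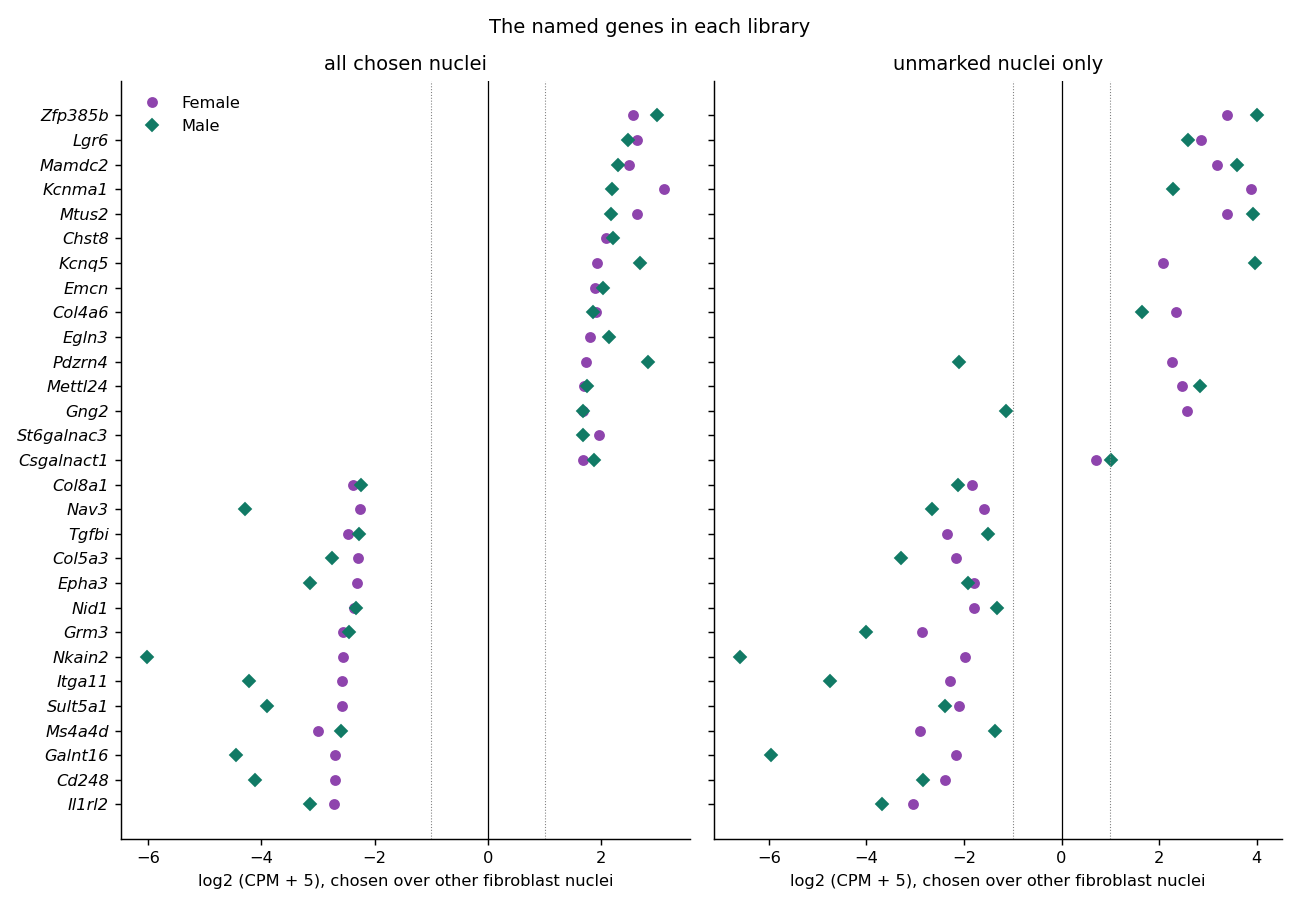
Log2 of (CPM + 5) in chosen over other fibroblast barcodes for 15 higher and 14 lower genes named by the fixed order of effect, with Female and Male as separate points. At left all chosen nuclei are used, and the genes lie beyond 1 on either side of 0 in both libraries, which is the condition for naming them. At right marked nuclei are left out, genes with too few UMIs are not drawn, and Pdzrn4 and Gng2 in Male rest on 0 UMIs.

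Of the 15 genes named as lower in the chosen nuclei, 13 were highest in unmarked other fibroblast nuclei among the same 4 classes. The choice favours this count, because the genes were picked for being lower than in other fibroblast barcodes. Cd248, the fibroblast surface protein endosialin, stood at 21.5 CPM against 168 in Female and 4.88 against 166 in Male (log2 -2.71 and -4.12). Nid1, a basement membrane protein that links laminin to collagen IV, stood at 58.3 CPM against 323 and 68.3 against 361 (log2 -2.37 and -2.32). The guidance receptor gene Epha3 had log2 differences of -2.31 and -3.14, and Tgfbi, which encodes a matrix protein induced by TGF-beta, of -2.48 and -2.27. Col8a1, a network-forming collagen chain, differed by -2.38 and -2.24. Il1rl2, which encodes the receptor for interleukin-36, had 0 UMIs in both libraries and was at least 3.01-fold lower in Female and at least 2.68-fold lower in Male, taking 3 UMIs per library as what a count of 0 allows. Itga11, a collagen-binding integrin chain, had 0 UMIs in Male and was at least 5.98-fold lower there.

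With marked nuclei left out on both sides, 243 of 8598 genes (2.83%) were at least 2-fold higher in both libraries and 453 (5.27%) at least 2-fold lower. In Female alone 9.61% were higher and 11.2% lower, and in Male alone 15.4% and 34.9%. Only 34185 UMIs stood behind the Male values, so many of the lower calls rest on 0 UMIs there. The genes with the largest differences kept their direction: Mtus2 was at 998 CPM against 91.2 in Female and 761 against 45.7 in Male, Zfp385b at 331 against 27.2 and 497 against 26.4, and Mamdc2 at 401 against 39.7 and 351 against 24.5. Unc5c, a netrin receptor, was at 432 CPM against 62.9 and 351 against 30.4. Pdlim3, which encodes an actin-linked LIM protein of muscle, was at 382 against 21.1 and 146 against 25.9. Of the 15 named as higher in this comparison, 11 were highest in smooth muscle among the 4 classes, again without a share over all genes beside it. The smooth muscle marker list summed to 1037 and 1082 CPM in the unmarked chosen nuclei against 579 and 520 CPM. Pdzrn4 and Gng2 were higher in Female (log2 2.26 and 2.58) but had 0 UMIs in Male, where 0 allows up to 87.8 CPM, more than the other group held, so no direction is given. Pcsk6, a proprotein convertase, was lower, with 5 and 1 UMIs (31.8 CPM against 511 and 29.3 against 576).

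Gene groups are described by their counts, beside a median log2 difference of 0.01 over all 8432 genes, of which 4289 lay above and 4143 below 0, and beside the 1.44% called higher and 2.64% called lower. The lists are taken over all chosen nuclei, marked ones included, except where unmarked nuclei are named. Of 26 potassium and calcium channel genes tested, 18 had a positive mean log2 difference (median 0.50). In both libraries 6 passed the 2-fold mark upward: Kcnma1, Kcnq5, Kcnd2, Kcnk3, the calcium channel subunit gene Cacnb2 and the cation channel gene Trpm3. Kcnd2 stood at 442 CPM against 159 in Female and 991 against 301 in Male, and was also a leading gene of the cluster that was 76.0% mesothelial-marked. None of the channel genes was at least 2-fold lower in both libraries. Over all genes tested in the unmarked nuclei the median was -0.17, or 0.25 with genes at 0 UMIs set to the limit, and 2.83% were called higher. Of the channel genes 18 of 26 lay above 0 there (median 0.72, or 1.02 at the limit), and 8 were called higher. Kcnma1, Kcnq5, Cacnb2 and Trpm3 were among them, and Kcnd2 (2 and 15 UMIs) and Kcnk3 (7 and 0) were not. The 8 also held the L-type calcium channel gene Cacna1c, at 1501 CPM against 516 and 1375 against 455.

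Synaptic adhesion genes lay mostly above 0 (16 of 19, median 0.50). Beside Nlgn1, a gene of the rule, Tenm4 and Clstn2 passed the 2-fold mark in both libraries, at log2 1.04 and 1.08 for Tenm4 and 1.06 and 1.34 for Clstn2, while Cadm3 was lower with 2 and 0 UMIs. In the unmarked nuclei Clstn2 was again called higher and Cadm3 lower, and Tenm4 was not called. Of 31 axon guidance genes 16 lay above 0 (median 0.11). Unc5c and Ephb1 were higher, and Ephb2, Ntn1, Epha3 and Robo1 lower. Of these, only Unc5c, Epha3 and Robo1 were also called in the unmarked nuclei, the same way. The receptors and adhesion molecules of this list lay on both sides of 0. Ephb1 had log2 differences of 1.66 in Female and 2.04 in Male, and Robo1 stood at 132 CPM against 323 and 73.2 against 269.

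Of 5 autonomic receptor genes tested, none passed beside Chrm2, which the rule reads, and Chrm3 stood at 509 CPM against 197 in Female and 264 against 181 in Male (log2 1.35 and 0.53). Among 7 neural crest transcription factor genes tested, none passed beside Tfap2b, also read by the rule (3 above 0, median -0.61, or -0.46 with genes at 0 UMIs set to the limit of 3). Among 16 heart field and outflow factors (10 above 0, median 0.23), Gata4 and Tbx20 were higher. Neither was called in the unmarked nuclei. Gata4 stood at 113 CPM against 48.0 in Female and 322 against 54.8 in Male, but in the unmarked nuclei it had 5 and 0 UMIs. Of 30 BMP and TGF-beta genes 21 lay above 0 (median 0.43), with Gdf10 lower and none higher. In the unmarked nuclei 15 of 29 lay above 0 (median 0.07, or 0.23 at the limit), with 4 called higher and 2 lower. Of 26 Wnt genes 14 lay above 0 (median 0.26), with Lgr6 the one that passed.

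Matrix genes lay mostly below 0. Of 20 collagen chain genes outside collagen VI, 16 lay below (median -0.48): Col4a6 was higher, and Col5a3, Col8a1, Col14a1, Col15a1 and Col16a1 were lower. In the unmarked nuclei Col14a1 and Col15a1 were not called, and the others were called the same way. Col14a1, which encodes a fibril-associated chain, stood at 457 CPM against 1239 in Female and 259 against 974 in Male. Elastic fibre genes were lower in 13 of 19 by sign (median -0.35), and Fbn1, Mfap4, Mfap5, Loxl1, Loxl3 and Emilin2 passed. Of these, only Fbn1 and Emilin2 were also called lower in the unmarked nuclei. Fbn1, the microfibril protein fibrillin 1, stood at 202 CPM against 637 and 312 against 1004. Fbn1, Mfap4, Cadm3, Omd and Ogn overlap genes on the opposite strand, and the sources used here do not say whether counting used strand. Of 21 ADAMTS and MMP genes 18 lay below 0 (median -0.80), and 6 passed, with the aggrecan-cutting protease gene Adamts5 at 64.4 CPM against 304 and 39.1 against 404. Adamts16 among them is a gene of the rule.

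Of 12 complement genes 8 lay below 0 (median -0.92), with Serping1 (C1 inhibitor) and C7 passing; C7 is again a gene of the rule. Of 12 chemokine and cytokine genes 11 lay below 0 (median -0.68), with Ackr3 and Il6ra passing. Of 30 growth factor and receptor genes 17 lay below 0 (median -0.35), with Vegfd, Pdgfrl, Gfra2 and Ntrk2 passing. All 10 immediate early genes tested lay below 0 (median -0.64), and Egr1 passed on 2 and 1 UMIs. Proteoglycan genes lay below 0 in 14 of 22 (median -0.35, Omd and Ogn passing) and matricellular genes in 9 of 17 (median -0.05, Cyr61 higher, Comp and Smoc2 lower). Of the genes named in this paragraph, C7, Ackr3, Pdgfrl, Comp and Smoc2 were again called lower in the unmarked nuclei. Serping1, Il6ra, Vegfd, Gfra2, Ntrk2, Egr1, Omd, Ogn and Cyr61 were not called there.

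Collagen VI and the IGF system hold the other named members of the label. Of 6 collagen VI chain genes 4 could be tested, and none was called beside Col6a6, which the rule reads. Col6a1 had log2 differences of -0.73 in Female and -0.29 in Male, Col6a2 of -0.07 and -0.62, and Col6a3 of -1.67 and -0.57. Of 16 IGF system genes tested, 10 lay above 0 (median 0.12) and none was 2-fold apart in both libraries. Igf1r, the receptor for IGF-1, stood at 620 CPM against 701 in Female and 781 against 618 in Male.

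Igf1 went opposite ways in the 2 libraries over all chosen nuclei. In Female it had 253 UMIs in 32 of 70 nuclei, with up to 50 in 1 nucleus, or 776 CPM against 204 in the other fibroblast barcodes (log2 1.90). In Male it had 16 UMIs in 9 of 40 nuclei, or 78.1 CPM against 130 (log2 -0.70). In the unmarked nuclei it had 231 UMIs in 27 of 41 nuclei in Female (1469 CPM against 264, log2 2.45) and 4 UMIs in 3 of 11 nuclei in Male (log2 -0.63). As a label marker it was therefore high in the Female chosen nuclei and not in the Male ones. Endothelial nuclei held 15.8 and 16.3 CPM and smooth muscle nuclei 48.5 and 38.1 CPM of Igf1. In the Kcnma1 cluster as a whole it stood at 1248 CPM in Female and 738 in Male, both above the other clusters, and of the Male chosen nuclei 6 of 40 lay in that cluster against 30 of 70 in Female.

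Against the 3 other rule-defined fibroblast groups, taken over unmarked nuclei, Igf1 stood at 240 and 203 CPM in the C7 and Scara5 group, 474 and 327 in the Pex5l and Lsamp group and 150 and 86.5 in the Pi16 and Dact2 group. The Female unmarked chosen nuclei were above all 3. The Male ones held 4 UMIs of Igf1, too few to give them a place in this order. Chrm2 had 0 UMIs in the Pi16 and Dact2 group in both libraries, and Tfap2b had 3 and 0. All of these groups were set by marker sums that exclude each other, so no test was made between them.

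A larger share of genes was 2-fold apart between the Female and Male chosen nuclei than between the other fibroblast nuclei of the libraries, and the chosen nuclei also differed in makeup. Of 2412 genes with at least 50 UMIs, 149 (6.18%) were at least 2-fold higher in Female and 102 (4.23%) in Male, against 0.239% and 0.327% of 7945 genes in the other fibroblast barcodes, which have far more UMIs. In Female 41 of 70 nuclei were unmarked, and in Male 11 of 40. Sex cannot be told apart from the library here, and the part of the makeup in these counts was not tested beyond the unmarked comparison. There, 93 of 648 genes (14.4%) were higher in Female and 49 (7.56%) in Male, against 0.309% and 0.541% in the unmarked other fibroblast nuclei.

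Several of the largest differences rested on few nuclei. Dkk2, which encodes a Wnt inhibitor, had 75 UMIs in 3 Female nuclei and 0 in Male, and was at least 15.7-fold higher in Female. Ntm, an IgLON adhesion gene, had 65 UMIs in 9 Female nuclei and 0 in Male (at least 13.6-fold), and Rgs6, a regulator of G protein signalling, 58 in 10 and 0 (at least 12.1-fold). Opcml, another IgLON gene, had 342 and 11 UMIs, or 1049 against 53.7 CPM, while the other fibroblast barcodes held 2612 and 1576 CPM. Igf1 had a Female over Male log2 difference of 3.23 in the chosen nuclei and 0.63 in the other fibroblast barcodes. Gclc, the catalytic subunit of the enzyme that starts glutathione synthesis, had 120 and 8 UMIs. In the Male direction, Grin2a, an NMDA receptor subunit gene, had 2 UMIs in Female and 50 in Male, all 50 in 3 nuclei, and Kif26b had 9 and 100 UMIs in 4 nuclei of each library. Rps6ka2, a ribosomal S6 kinase gene, had 76 and 222 UMIs.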

How the data were processed

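Nuclei were captured in droplets with the BMKMANU DG1000 kit and pooled by sex, per the labels. The deposited values are whole UMI counts per gene and barcode, written by Cell Ranger 7.0.0 per the file headers; the submitters' processing notes name STAR, Seurat 4.4.0 and GRCm38, and no source used here states strand, filters or doublet removal. GEO's groups Female and Male hold 1 library each, so no test, replicate error or p-value was possible.

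Scripts in Python 3.11.15 kept barcodes with at least 300 genes, applied the rule to the raw counts, summed UMIs per library and group and compared log2(CPM + 5). A gene was tested with at least 50 UMIs over the sums and 20 CPM in a pooled group, and called when at least 2-fold apart the same way in both libraries; between Female and Male it needed 50 UMIs over both. Named were the 15 called genes each way with the largest smaller-of-both-libraries difference, 8 each way between the sexes and up to 5 per list, leaving out the rule's genes, unnamed gene models and sex-linked genes; single genes outside this rule (Chrm3, Ncam1, Pappa2, Pecam1 and other cluster genes, Xist and Uty, Igf1r and Cacna1c) were picked after their values were seen. One gene that this order names is not reported here. The nuclei, the lists and the marks were chosen with earlier results of these data known. Endothelial and mesothelial nuclei were barcodes in neither the fibroblast nor the smooth muscle class with at least 3 UMIs of their list and more of it than of the other list. Intervals are exact (Clopper-Pearson or Poisson, 95%) and cover counting error only; a count of 0 allows 3. Clusters came from Scanpy 1.11.5 (1500 variable genes, 20 components, 15 neighbours, Leiden resolution 0.5), without the rule's, reporter, sex-linked, ribosomal, haemoglobin and mitochondrial genes. Doublets were called with Scanpy's Scrublet and kept. The fold and rule steps were tested on simulated data. Alternatives changed the threshold, the genes of the rule, depth, doublets, filters, pseudocount and scaling. Promoters came from RefSeq (GRCm38.p6), and those covered by GENCODE exons are not printed.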

Additional observations from a re-analysis of the deposited data

Results flagged for a closer look

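Igf1 was singled out because the libraries went opposite ways: chosen over other fibroblast barcodes, its log2 difference was 1.90 in Female and -0.70 in Male. The Female value rests on 253 UMIs in 32 nuclei and the Male one on 16 UMIs in 9 nuclei. The difference between the libraries was not tested, as each sex has 1 library. In the Kcnma1 cluster nuclei that the rule did not choose, Igf1 stood at 1050 CPM in Female and 785 CPM in Male, above the other clusters' unmarked nuclei (244 and 173 CPM) in both.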

How the results depend on the processing

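The share of chosen nuclei moved with the threshold: at 2 UMIs it was 2.80% in Female and 1.47% in Male, and at 5 UMIs 1.66% and 0.589%. Without Nlgn1 in the rule the Female share was 1.60%. Thinned to 1000 UMIs per barcode the shares were 0.976% and 0.536%, and without marked nuclei the Male share was 0.452%. The Female share was above the Male one in each of these settings where both were computed. When barcodes were thinned before choosing, the GFP share of the chosen nuclei became 100% in both libraries. These were 20 of 20 Female and 4 of 4 Male reporter UMIs, in the 18 and 11 nuclei then chosen. Thinning the nuclei first chosen gave 75% in Female (9 UMIs of GFP and 3 of tdTomato) and 45.5% in Male (5 and 6). Without marked nuclei and without thinning, the share was 87.2% in Female and 100% in Male (1 of 1). In unmarked Female nuclei it became 100% without Nlgn1 (16 of 16) and when thinned before choosing, was 88.9% (8 of 9) with UMIs of the same nuclei thinned, and lay between 85.7% and 87.2% in the other settings tried. The 344 genes 2-fold apart from other fibroblast barcodes became 936 when thinned, 696 without marked nuclei, 175 with a pseudocount of 20 CPM, 540 without a CPM minimum, 919 in Female alone and 1284 in Male alone. The last 4 follow from the construction of the setting; for the others the cause was not tested. The genes 2-fold apart between the sexes (149 higher in Female and 102 in Male) became 63 when thinned, 142 without marked nuclei and 96 at a minimum of 100 UMIs and 50 CPM. Of 22 lists, 10 had a median above 0, and 5 when thinned. Of 438 values of named genes under alternatives, 409 kept direction and stayed at least 2-fold apart in both libraries. In 25 the smaller difference fell within 2-fold or the libraries went opposite ways. In 4 both libraries reversed, all when thinned: Emcn to -3.72, St6galnac3 to -3.27, Pdzrn4 to -0.70 and Csgalnact1 to -0.34. Leaving out doublet calls gave 402 genes and leaving out shared barcodes 361. The cluster with most chosen nuclei held 31.8% to 36.7% of them over the settings tried. The settings without marked nuclei and without shared barcodes were chosen after seeing the data. No paired analysis was possible because each sex has 1 library and its technical replicates are not marked in the files.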

Other observations

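Genes highest in the unmarked Female chosen nuclei, picked after their values were seen, included some with few or no UMIs in the 11 unmarked Male nuclei. Pappa2 had 47 UMIs in 14 of 41 Female nuclei, at 299 CPM against 5.59 CPM in the unmarked other fibroblast nuclei, and 0 UMIs in Male, where 0 allows up to 87.8 CPM. Chrm3 stood at 452 CPM against 57.6 in Female, in 23 nuclei, and had 1 UMI in Male. Ltbp1, which encodes a latent TGF-beta binding protein, was higher in both libraries, at 2754 CPM against 567 in Female and 1492 against 531 in Male. Of 27 Hox genes, 6 could be tested in the unmarked nuclei and all lay above 0, beside 3586 of 8598 genes in all. A low gene can pass the filter on few UMIs in this small group, and so only where it is high. The count is therefore partly set by the filter and nothing is read from it. Hoxb5 was at least 2-fold higher in both libraries, as were 2.83% of all genes tested.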
